A study of Homo sapiens with 7 samples.

Results

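The 7 genes described here, CRYAB, HSPB1, HSPB2, HSPB3, HSPB6, HSPB7 and HSPB8, encode small heat shock proteins. They were chosen by family and listed in all 3 single-cell count tables of the series, out of 21262 genes listed in all 3. The choice was made with their levels in these libraries known, so their values are given as a description, without a test. Each value is given by library and by cell class, where a class is defined by summed marker genes that include no member of the family.

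Small heat shock proteins share the alpha-crystallin domain and assemble into oligomers that hold unfolding proteins in a soluble state without using ATP, so that the ATP-driven chaperones of the HSP70 family can refold them. Heart and skeletal muscle hold many members of the family, where they bind desmin, filamin and other proteins of the intermediate filaments and the Z-disc. CRYAB and HSPB8 are known for inherited myopathies, and HSPB8 acts with the co-chaperone BAG3 and the ubiquitin ligase STUB1 in the removal of damaged filamin.

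The cells were cardiac cells made from the established cell line H1, which derives from a human embryo's stem cells. One library came from day 11, with no treatment in its labels, one from day 15 with the vehicle DMSO and one from day 15 with CHIR, usually short for CHIR99021, which switches on canonical Wnt signalling by blocking GSK3. The labels gave neither a dose of CHIR nor its time of addition. Live cells had been sorted by exclusion of DAPI, and the protocol text of the day 11 library names day 15. Each group had 1 library of 1 cell line, and the labels do not say whether the cultures were separate, so no difference below has a replicate check, no p-value is given and all intervals are 95% intervals for counting error only. H3K27ac immunoprecipitation and input samples of day 15 CHIR cells were not analysed here.

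The promoters are shown as background on the members, and their motifs were not tested against any difference between libraries. Of the 7 members, 5 matched an entry of the RefSeq promoter table on GRCh38.p14, and CRYAB and HSPB2 did not. The 250 bases before the listed start were searched on both strands for 5 motifs. These were the 8-base cores of the heat shock element, GAANNTTC and TTCNNGAA, the MEF2 consensus, the CArG box of serum response factor and the TATAAA box. Matches are in capitals.
HSPB1, chr7:76302423-76302672, plus strand: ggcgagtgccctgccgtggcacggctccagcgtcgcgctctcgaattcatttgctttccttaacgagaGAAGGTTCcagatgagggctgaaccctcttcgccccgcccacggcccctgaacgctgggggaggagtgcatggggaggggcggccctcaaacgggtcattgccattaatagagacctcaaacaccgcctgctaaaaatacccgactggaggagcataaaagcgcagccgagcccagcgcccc
HSPB3, chr5:54455449-54455698, plus strand: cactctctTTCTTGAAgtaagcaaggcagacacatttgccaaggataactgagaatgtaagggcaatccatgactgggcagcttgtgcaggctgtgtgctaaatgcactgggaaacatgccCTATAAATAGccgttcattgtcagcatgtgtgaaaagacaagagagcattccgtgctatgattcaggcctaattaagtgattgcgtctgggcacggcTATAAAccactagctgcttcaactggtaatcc
HSPB8, chr12:119178681-119178930, plus strand: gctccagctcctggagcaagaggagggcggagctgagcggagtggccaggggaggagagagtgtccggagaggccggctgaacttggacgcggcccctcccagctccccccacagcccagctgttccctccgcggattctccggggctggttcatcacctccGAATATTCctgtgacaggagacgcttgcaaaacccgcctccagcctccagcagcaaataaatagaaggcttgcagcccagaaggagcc
HSPB7, chr1:16018106-16018135, minus strand, the 30 bases from 92 to 63 before the listed start: atggagaggcCTAAATTTAGctagtagaca

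HSPB1, HSPB8 and HSPB6 held a core of the form GAANNTTC, which 5.78% of 35116 promoters of the same length held. The matches were GAAGGTTC in HSPB1, GAATATTC in HSPB8 and GAATCTTC in HSPB6. HSPB3 and HSPB6 held TTCNNGAA, found in 6.62% of all promoters. HSPB3 and HSPB7 held a match to the MEF2 consensus, CTATAAATAG and CTAAATTTAG, found in 0.515% of all promoters. In HSPB3 this match overlapped a TATAAA. HSPB3, HSPB6 and HSPB7 had a TATAAA beginning 28 to 32 bases before the listed start, and 10.7% of all promoters held that motif in the window. None of the 5 promoters searched held a CArG box, found in 1.16% of all promoters. The listed start of HSPB7 lies inside the gene's span of chr1:16014029-16019594, which holds 8 RefSeq transcripts, so this window describes 1 start only. These matches describe letters and are no evidence of binding.

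The libraries held 65675862 to 81076689 UMIs (unique molecular identifiers, each standing for 1 captured transcript end) in 4015 to 5683 cells, and pairs of libraries shared 3 to 6 cell barcodes. Ribosomal protein genes took 15.1% of UMIs at day 11, 24.2% with DMSO and 31.6% with CHIR. Muscle-gated cells passed a sum of 8 muscle markers and not the sum of 7 mesenchymal markers. There were 3214 of them at day 11, 1829 for DMSO and 1270 for CHIR. Mesenchymal-gated cells numbered 1232, 1625 and 3709 in the same order. Cells that passed both sums, which include any doublets of these classes, numbered 963, 461 and 494 and were set apart. All 8 muscle markers were detected in the muscle-gated cells of every library, where their summed level was 22446, 15689.5 and 16766 CPM (UMIs divided by the class total and scaled to counts per 1e6). In the mesenchymal-gated cells it was 1358, 1246 and 582 CPM.

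HSPB1 and HSPB7 made up most of the family's UMIs in muscle-gated cells, and CRYAB came next. The libraries count 1 tag per transcript end, so levels were not divided by gene length. Capture can differ between genes, and ratios between libraries depended on gene length, as given below. Together the 7 members stood at 1079 CPM at day 11, 1651 CPM with DMSO and 1182 CPM with CHIR. HSPB1 gave 40.5%, 49.3% and 44.98% of that sum, and HSPB7 gave 40.2%, 29.7% and 50.6%. CRYAB gave 9.37%, 11.9% and 2.45%. HSPB2, HSPB3 and HSPB8 each gave under 5% in every library. HSPB6 gave 0.124% at most.

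In the CHIR library 6 of the 7 members were at least 1.5-fold lower in muscle-gated cells than in the DMSO library, and none was that much higher. Among 15662 genes with at least 20 UMIs over both libraries, 26.5% were lower by that much and 20.4% higher. All 7 members passed this minimum. Their median log2 ratio was -2.12, against -0.03 for all genes. When the totals held no mitochondrial or ribosomal protein genes, the background was 21.3% lower and 27.8% higher and its median 0.14, and 5 of 7 members were past the threshold.

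CRYAB, the alpha-B-crystallin that binds desmin filaments, stood at 101 CPM at day 11, 197 CPM with DMSO and 28.9 CPM with CHIR. The DMSO library was the highest and the CHIR library the lowest. CHIR was 6.82-fold below DMSO (interval 6.23 to 7.46, from 541 and 4738 UMIs). After each cell was thinned to 5000 UMIs, 31.9% of muscle-gated cells at day 11, 44.6% with DMSO and 12.5% with CHIR held a CRYAB UMI. The share without thinning was 51.3%, 63.9% and 28.6%. Mesenchymal-gated cells gave thinned shares of 3.67%, 2.89% and 0.756%, at median depths of 16299, 17680 and 11776 UMIs against 11436.5, 12839 and 14181.5 in muscle-gated cells.

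Single cells with many CRYAB transcripts were seen in the other libraries and not with CHIR. The largest count of CRYAB in 1 muscle-gated cell was 42 at day 11, 118 with DMSO and 7 with CHIR. The variance of thinned counts divided by their mean, which is 1 for pure sampling, was 1.66, 3.37 and 1.26. The mean itself was 0.478, 0.924 and 0.148 thinned UMIs per cell. At a given relative spread between cells, a higher mean raises this ratio, the largest count and the share of cells with many UMIs. Whether the spread of CRYAB differed between libraries apart from the mean was not tested. The share of thinned cells with at least 5 CRYAB UMIs was 0.486% at day 11 and 3.40% with DMSO, and none of 1256 cells with CHIR held that many.

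HSPB2, the partner of HSPB3 in the hetero-oligomer found in muscle, stood at 46.3 CPM at day 11, 55.9 CPM with DMSO and 5.24 CPM with CHIR. It was the member furthest below DMSO in the CHIR muscle-gated cells, by 10.7-fold (8.68 to 13.2, 98 and 1343 UMIs). HSPB3 stood at 14.8, 49.7 and 8.24 CPM. Its CHIR level was 6.03-fold below DMSO (5.10 to 7.18, 154 and 1194 UMIs). The 2 partners thus differed at day 11, where HSPB2 was near its DMSO level and HSPB3 was not. Thinned shares of cells were 16.0%, 19.3% and 2.63% for HSPB2 and 6.84%, 20.0% and 4.14% for HSPB3. In mesenchymal-gated cells neither passed 0.653%.

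HSPB8, whose gene overlaps the antisense gene HSPB8-AS1, stood at 45.2 CPM at day 11, 41.1 CPM with DMSO and 9.41 CPM with CHIR. CHIR was 4.37-fold below DMSO (3.72 to 5.16, 176 and 988 UMIs). The thinned share of cells was 19.3%, 18.7% and 5.33%. HSPB6, a member known from smooth and striated muscle, was near the detection limit of this class, with 29, 49 and 10 UMIs. These made 0.784, 2.04 and 0.535 CPM, a ratio 3.81-fold below DMSO with a wide interval (1.91 to 8.44).

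HSPB1, the most widely expressed member, stood at 437 CPM at day 11, 814 CPM with DMSO and 532 CPM with CHIR. Its CHIR level was 1.53-fold below DMSO (1.49 to 1.57), just past the 1.5-fold threshold. Its log2 ratio of -0.61 became -0.44 when mitochondrial and ribosomal protein genes were taken out of the totals, which is short of the threshold. HSPB7, a cardiac member that binds filamin C, was the exception. It stood at 434, 491 and 598 CPM, so that CHIR was 1.22 times DMSO (1.19 to 1.2504). The share of thinned cells with an HSPB7 UMI was 79.7%, 83.1% and 91.2%, and for HSPB1 it was 85.4%, 95.4% and 91.8%.

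**Figure D1:**
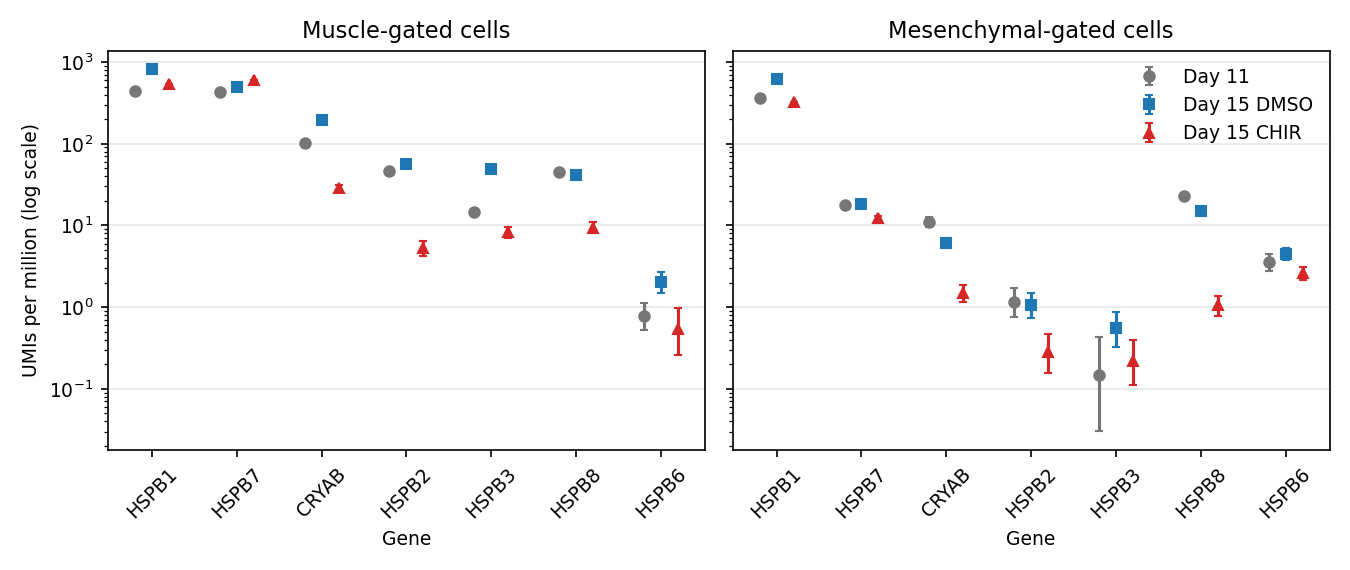
CPM of the 7 genes (log axis) in muscle-gated cells on the left and mesenchymal-gated cells on the right. Points are 1 library each and bars are exact Poisson 95% intervals; in muscle-gated cells the CHIR library is lowest for CRYAB, HSPB2, HSPB3, HSPB8 and HSPB6 and highest for HSPB7.

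Markers of other cell types also differed between these muscle-gated cells. The 7 mesenchymal markers, all detected in both libraries, summed to 178 CPM with DMSO and 246 CPM with CHIR, and POSTN was 7.31 times DMSO. The 6 smooth muscle markers, again all detected, summed to 941 and 1062 CPM, with ACTA2 at 1.98 times DMSO and TAGLN 3.43-fold below it. The 6 epicardial markers, all detected, summed to 26.7 and 5.24 CPM. The 7 endothelial markers summed to 71.2 and 44.9 CPM. The 7 endoderm markers summed to 85.3 and 13.5 CPM, and 5 of them were detected with CHIR, with AFP and FGB at 0. The part of these differences in the members' ratios was not tested.

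Within muscle the same comparison was made in cells matched by further genes. In cells with at least 2 UMIs of TBX2 or TBX3, transcription factors of the atrioventricular canal, CRYAB stood at 229 CPM with DMSO and 28.1 CPM with CHIR. In cells without a UMI of either, it stood at 187 and 33.3 CPM. HSPB7 was 498 and 590.2 CPM in the first of these classes and 483 and 634 CPM in the second. So CRYAB was lower and HSPB7 higher with CHIR in both classes. The same held in cells without NPPA, the gene of atrial natriuretic peptide, where CRYAB stood at 141 and 26.5 CPM and HSPB7 at 495 and 594 CPM.

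Cells that passed both gates were compared in the same way. With CHIR 6 members were at least 1.5-fold lower than with DMSO and 1 was higher, against 23.7% of 14321 genes lower and 25.4% higher. The higher one was HSPB7, at 205 CPM with DMSO and 337 CPM with CHIR, 1.65 times DMSO (1.56 to 1.74). CRYAB was 5.73-fold lower and HSPB2 8.56-fold lower.

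Over all cells of each library, where the share of muscle-gated cells was 45.6% with DMSO and 22.7% with CHIR, 6 members were at least 1.5-fold lower, against 26.2% of 18785 genes lower and 25.6% higher. HSPB7 was 1.13-fold lower there (1.11 to 1.16), so its direction in all cells was opposite to that in muscle-gated cells. In cells that passed neither gate, 2 members only, HSPB1 and HSPB7, reached the minimum of 20 UMIs over both libraries. Both were at least 1.5-fold lower with CHIR, against 22.3% of 8337 genes.

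**Figure D2:**
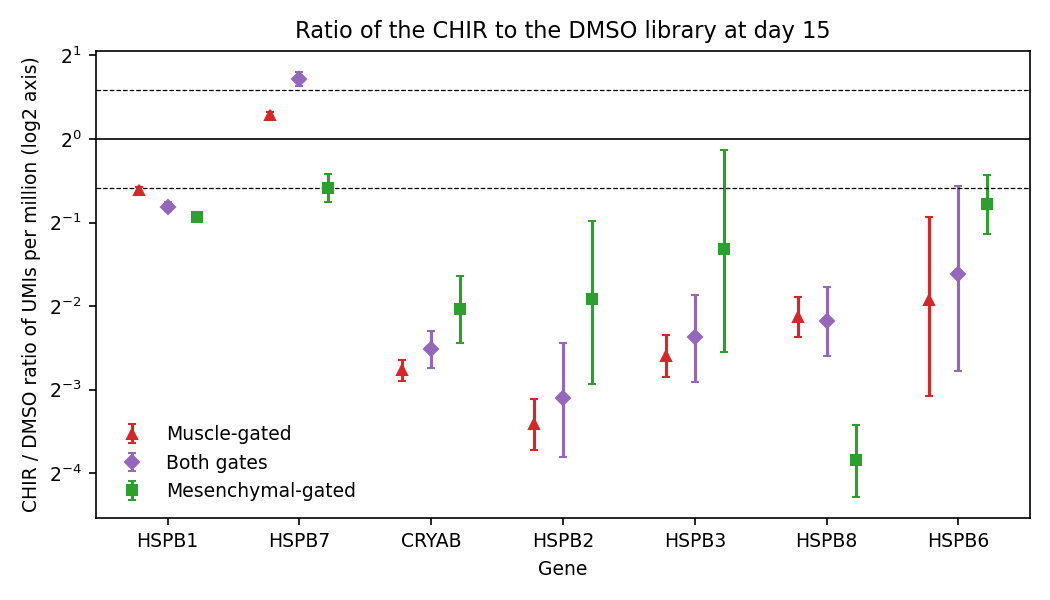
Ratio of the CHIR to the DMSO library at day 15 for each gene (log2 axis) in muscle-gated cells, cells that passed both gates and mesenchymal-gated cells. Bars are exact 95% counting intervals, the solid line is no difference and dashed lines mark 1.5-fold; HSPB7 is the gene above the solid line, in muscle-gated cells and in cells of both gates.

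In the mesenchymal-gated cells all 7 members were at least 1.5-fold lower with CHIR than with DMSO, against 24.1% of 16774 genes that were lower and 32.9% that were higher. All 7 passed the minimum of 20 UMIs, with HSPB3 close to it. CRYAB, HSPB2 and HSPB7 stood within the range of muscle genes here, as given below, so expression and free muscle RNA cannot be told apart. The same range held HSPB3 with CHIR. The count of 7 thus includes members not shown to be expressed in these cells. The median log2 ratio of the members was -1.29 and that of all genes 0.14. Totals without mitochondrial and ribosomal protein genes gave all genes a median of 0.31, with 19.7% lower and 39.4% higher, and 6 of 7 members past the threshold. Other markers were lower in the same cells. The 6 smooth muscle markers, all detected in both libraries, summed to 2650.4 CPM with DMSO and 513 CPM with CHIR. The 6 epicardial markers summed to 294 and 80.7 CPM and the 7 endothelial markers to 151 and 59.3 CPM, again all detected. Their part in the members' ratios was not tested.

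HSPB8 showed the largest of these ratios. It stood at 23.1 CPM at day 11, 15.0 CPM with DMSO and 1.05 CPM with CHIR, where 52 UMIs were counted in 3709 cells. CHIR was 14.3-fold below DMSO (10.7 to 19.5), an interval that does not overlap that of 3.72 to 5.16 in muscle-gated cells. Whether these 2 ratios differ beyond the spread between cultures was not tested. HSPB1 stood at 361, 617 and 324 CPM, 1.91-fold lower with CHIR (1.87 to 1.95). CRYAB stood at 11.0, 6.12 and 1.49 CPM, 4.11-fold lower (3.12 to 5.45).

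The other members were low in mesenchymal-gated cells. HSPB2 had 33 UMIs with DMSO and 14 with CHIR, and HSPB3 had 17 and 11. HSPB6 stood at 3.55 CPM at day 11, 4.47 CPM with DMSO and 2.60 CPM with CHIR, 1.72-fold lower (1.34 to 2.203). HSPB7 stood at 17.6, 18.3 and 12.2 CPM, 1.504-fold lower (1.34 to 1.69), at the threshold itself. TNNT2, a gate marker, was 1.66-fold lower in the same cells. HSPB3 ranged from 1.73-fold to 5.30-fold lower over the alternative settings.

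HSPB6 was the member with higher levels in mesenchymal-gated than in muscle-gated cells. Muscle was 4.53-fold lower at day 11, 2.19-fold lower with DMSO and 4.86-fold lower with CHIR. Muscle-gated cells were at least 1.5-fold above mesenchymal-gated cells for 5 members at day 11, 5 with DMSO and 6 with CHIR, with background shares of 39.7%, 35.2% and 24.9%. The share of genes that much lower in muscle was 20.3%, 21.4% and 25.8%. With other scaling factors the split was 31.9% higher and 25.8% lower at day 11 (TMM factors) and 27.7% higher and 29.1% lower with DMSO (median-of-ratios size factors). HSPB3 stood in muscle at 101-fold on 3 mesenchymal UMIs at day 11 (34.5 to 493), 90.2-fold with DMSO and 37.2-fold with CHIR. HSPB2 stood at 39.6-fold, 52.3-fold and 18.6-fold, and HSPB7 at 24.7-fold, 26.8-fold and 49.0-fold. The sizes depended on the gates and scaling. Over the alternative settings the lowest HSPB3 contrast was 20.6-fold at day 11 and 34.9-fold with DMSO. The lowest for HSPB7 was 16.3-fold, 16.1-fold and 28.4-fold, and the lowest with DMSO was 30.3-fold for HSPB2 and 18.1-fold for CRYAB. The order of these members is therefore not fixed. HSPB1 was the flattest, at 1.21, 1.32 and 1.64 times.

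For scale, 4 muscle genes that were not used in the gates, MYL7, MYL4, TNNC1 and MYL3, stood in mesenchymal-gated cells at 1.16% to 17.3% of their muscle level. HSPB7 stood at 4.05% of its muscle level at day 11, 3.74% with DMSO and 2.04% with CHIR, and HSPB2 and HSPB3 at 0.987% to 5.38%. CRYAB stood at 10.9%, 3.10% and 5.15%. In each library CRYAB, HSPB2 and HSPB7 lay within the range of those muscle genes, which were picked after their values were seen, so expression in mesenchymal cells and free muscle RNA cannot be told apart for them. HSPB3 lay below all 4 muscle genes at day 11 and with DMSO, and within their range with CHIR. HSPB1 stood at 82.7%, 75.8% and 60.9% and HSPB8 at 51.0%, 36.5% and 11.1%. HSPB6 was above its muscle level throughout. In the 97 endoderm-gated cells of day 11, a class outside muscle and mesenchyme, HSPB8 stood at 16.6 CPM, CRYAB at 10.4 CPM and HSPB1 at 163 CPM.

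Between day 11 and day 15 with DMSO, 4 members were at least 1.5-fold higher in muscle-gated cells and none was that much lower. The libraries differ in day and in labelled treatment, so these cannot be told apart. HSPB3 was 3.36 times its day 11 level (3.03 to 3.72), HSPB6 2.60 times (1.61 to 4.27, on 49 and 29 UMIs), CRYAB 1.95 times (1.87 to 2.04) and HSPB1 1.86 times (1.83 to 1.90). HSPB2 was 1.21 times, HSPB7 1.13 times and HSPB8 0.909 times the day 11 level. HSPB8 had no firm direction, since it ranged from 0.892 to 1.40 times over the alternative settings. Of 17887 genes, 8.53% were higher by that much and 53.5% lower, and the median log2 ratio was -0.67. TMM factors moved this background to 25.9% higher and 33.8% lower, with a median of -0.08. Under them HSPB2 and HSPB7 also passed the threshold, making 6 members. The highest ratios over the settings were 5.16 times for HSPB3, 3.97 for HSPB6, 2.99 for CRYAB and 2.86 for HSPB1. Between these muscle-gated cells of day 11 and DMSO, the 6 smooth muscle markers went from 424 to 941 CPM and the 6 epicardial markers from 5.004 to 26.7 CPM, and their part was not tested.

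This background depended on gene length. Genes whose RefSeq span is at most 20 kb had a median log2 ratio of -0.04, and 16.5% of them were at least 1.5-fold higher. Genes over 100 kb had a median of -1.94. All 7 members are short, from 679 bases for HSPB3 to 15816 bases for HSPB8, so the first of these medians is the nearer comparison. A length was found for 83.2% of the genes. For CHIR against DMSO in muscle-gated cells, genes of at most 20 kb had a median of -0.18, and 32.2% of them were at least 1.5-fold lower. Whether reads in introns were counted alike in the libraries was not given in the sources used here, and its part was not tested.

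CHIR at day 15 was also set beside day 11 in muscle-gated cells. The ratios share the CHIR library with those above. HSPB2 was 8.83-fold lower, HSPB8 4.81-fold, CRYAB 3.50-fold and HSPB3 1.80-fold, so 4 of 7 members were past the threshold. That is near the background, where 56.7% of 17720 genes were lower by that much and 9.2% higher. The median log2 ratio was -0.84 for the members and -0.78 for all genes. A background of short genes was not computed for this comparison. HSPB6 had 10 UMIs with CHIR and 29 at day 11, too few to read. HSPB1 stood at 1.22 times and HSPB7 at 1.38 times its day 11 level.

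The members also differed in how they varied among muscle-gated cells of 1 library. CRYAB, HSPB7 and HSPB8 were higher in cells with more of the 8 muscle markers in all 3 libraries. From the lowest to the highest tertile of that summed score, HSPB7 went from 325 to 493 CPM at day 11. It went from 354 to 579.5 CPM with DMSO and from 465 to 749.8 CPM with CHIR. The highest tertile of HSPB8 stood at 1.65 times the lowest at day 11, 1.38 times with DMSO and 1.94 times with CHIR. HSPB2 stood at 1.36, 1.63 and 0.903 times in the same order, and HSPB3 at 0.778, 1.03 and 1.94 times. HSPB1 was nearly flat, with the highest tertile at 1.02, 1.05 and 1.19 times the lowest. CRYAB in the CHIR library went from 15.9 to 42.9 CPM, 2.70 times (2.14 to 3.43), against 1.18 times with DMSO and 1.28 times at day 11. In each tertile CRYAB was at least 4.84-fold lower with CHIR than with DMSO.

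**Figure D3:**
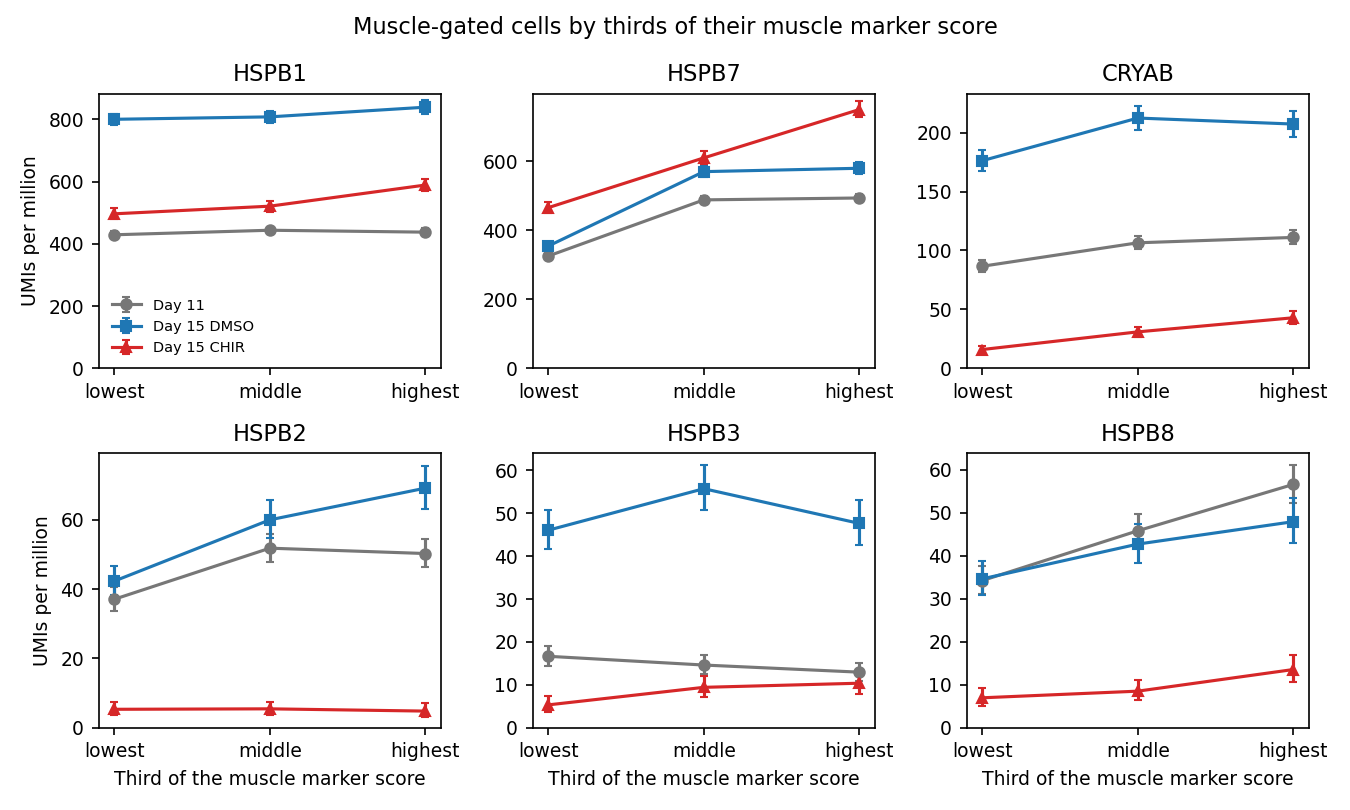
CPM of 6 genes in muscle-gated cells split into tertiles by their muscle marker score. Points are 1 library each with exact Poisson 95% intervals and axes start at 0. CRYAB, HSPB7 and HSPB8 are higher in the middle and highest tertiles than in the lowest in every library, and HSPB1 is nearly level. CRYAB, HSPB2, HSPB3 and HSPB8 are lowest with CHIR in each tertile.

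CRYAB and NPPA went together in 2 libraries. In DMSO muscle-gated cells with at least 5 NPPA UMIs per 10000 (268 cells) CRYAB stood at 383 CPM, against 141 CPM in cells without NPPA, 2.73 times (2.54 to 2.93). At day 11 it stood at 176 CPM in 116 such cells, 2.10 times the level without NPPA (1.83 to 2.39). The CHIR library had 11 such cells, too few to read. HSPB2 shared this pattern, at 2.40 times at day 11 (1.98 to 2.89) and 1.44 times with DMSO (1.24 to 1.68). HSPB7 did not share it across both, at 1.48 times in NPPA-rich cells of day 11 and 1.21-fold lower in those of the DMSO library. Nor did HSPB8, at 1.58 times and 1.34-fold lower. HSPB3 was 1.37-fold lower at day 11, with an interval that spans 1, and 1.38-fold lower with DMSO. HSPB1 stood at 1.07 and 1.10 times.

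CRYAB and HSPB2 parted in muscle-gated cells with a UMI of SHOX2, a transcription factor of the sinoatrial node. There were 84 such cells with DMSO, 4 with CHIR and none at day 11. With DMSO they held CRYAB at 335 CPM, 1.76 times the other muscle-gated cells (1.59 to 1.95), and HSPB3 at 105 CPM, 2.24 times (1.86 to 2.69). HSPB2 stood at 12.7 CPM, 4.60-fold lower (2.82 to 8.07, on 16 UMIs), and HSPB7 at 156 CPM, 3.26-fold lower (2.83 to 3.77). HSPB1 stood at 1.247 times (1.18 to 1.32) and HSPB8 at 1.33 times (1.03 to 1.71). HSPB6 had 1 UMI in these cells, too few to read. So CRYAB, HSPB3, HSPB1 and HSPB8 were higher in these cells, and HSPB2 and HSPB7 were lower.

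Cycling cells held less HSPB7 and HSPB8 in every library. In muscle-gated cells with at least 5 UMIs of 5 cycling genes (MKI67, TOP2A, CDK1, CCNB1 and BIRC5) HSPB7 stood at 308 CPM at day 11, 312 CPM with DMSO and 408 CPM with CHIR. In cells without any such UMI it stood at 449, 549.8 and 651 CPM. HSPB8 stood at 35.9, 17.7 and 4.70 CPM in the cycling cells and at 46.3, 46.3 and 10.2 CPM in the others. CRYAB was 1.56-fold lower in the cycling cells with DMSO and 1.41-fold lower with CHIR, but 1.03 times the others at day 11. HSPB3 was 1.44-fold lower with DMSO. At day 11 and with CHIR its intervals spanned 1. HSPB2 at day 11 went the other way, with 72.7 CPM in cycling cells and 41.7 CPM in the others.

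**Figure D4:**
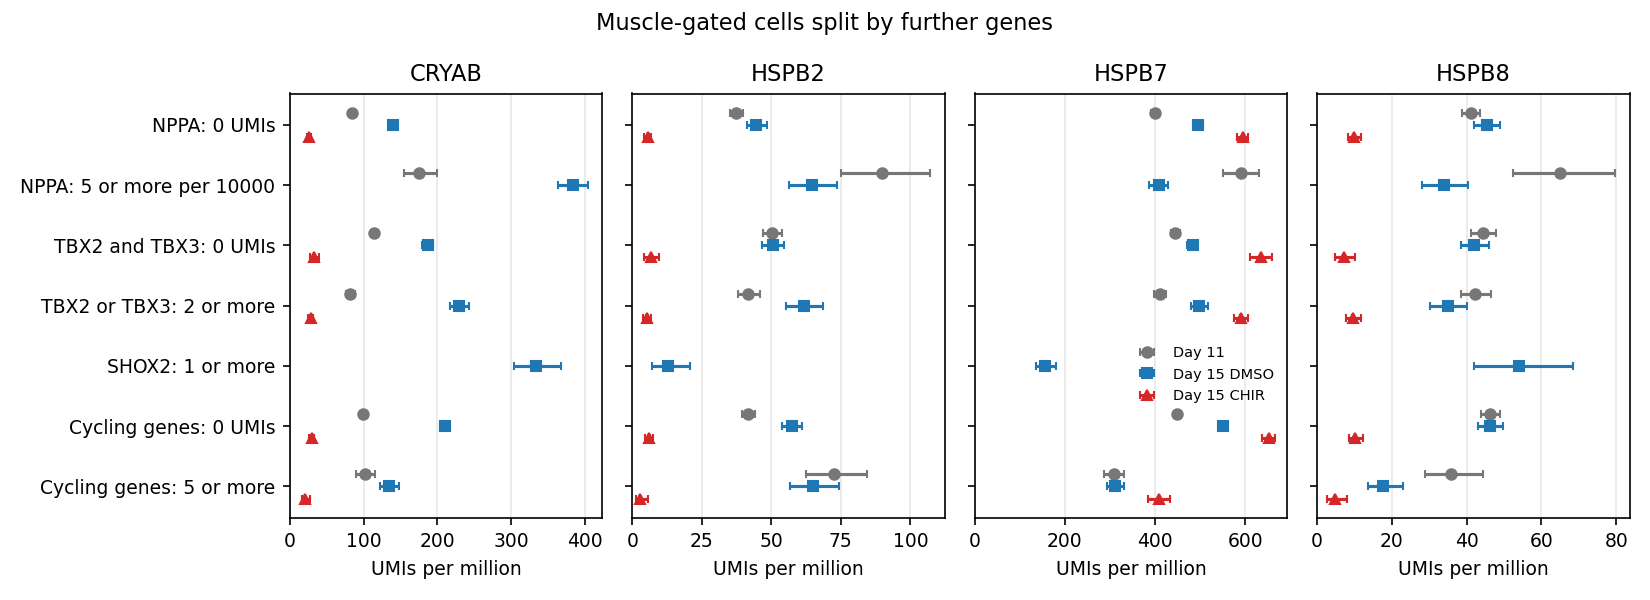
CPM of 4 genes in muscle-gated cells split by NPPA, by TBX2 and TBX3, by SHOX2 and by 5 cycling genes. Points are 1 library each with exact Poisson 95% intervals and classes under 20 cells are left out; CRYAB is high and HSPB2 and HSPB7 are low in the SHOX2 class of the DMSO library, at 335, 12.7 and 156.

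CRYAB and HSPB2 lie next to each other on chromosome 11. In RefSeq on GRCh38.p14 CRYAB spans chr11:111908564-111923740 over its 6 transcripts, and HSPB2, at chr11:111912734-111914093, lies inside that span. Whether the counting used strand was not given in the sources used here, so reads of the overlap may be shared between them. In thinned muscle-gated cells, a CRYAB UMI was seen in 47.1% of cells with an HSPB2 UMI and 29.0% of cells without one at day 11. The shares were 53.5% and 42.5% with DMSO, and 18.2% (33 cells, interval 6.98 to 35.5%) and 12.3% with CHIR. Members on other chromosomes also showed such gaps, though not in both of the first libraries. With and without an HSPB7 UMI, CRYAB was seen in 34.0% and 23.7% at day 11, and in 44.3% and 45.8% with DMSO. With and without an HSPB1 UMI, it was seen in 32.1% and 31.0% at day 11, and in 45.2% and 32.9% with DMSO. C11orf52, which overlaps the CRYAB span too, was 2.11-fold lower with CHIR than with DMSO in muscle-gated cells (42 and 114 UMIs). Of the next genes on that side, DIXDC1 was 1.34-fold lower and DLAT stood at 2.27 times DMSO. On the other side FDXACB1 stood at 2.12 CPM with DMSO and 1.34 CPM with CHIR (51 and 25 UMIs). ALG9 stood at 11.5 and 13.9 CPM in the same order. These genes differ in length, and whether the difference extends along this stretch was not tested.

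The genes most like each member were ranked over 14 classes of at least 50 cells, by Pearson correlation of log2(CPM + 1) among 5662 genes. These classes share libraries, so the correlations are descriptions. HSPB7 was most like TNNT2, the cardiac troponin T gene and one of the gate markers, with r of 0.997, and then RNF207 and MYL4. TNNT2 in muscle-gated cells stood at 1.23 times DMSO with CHIR, beside 1.22 times for HSPB7. CRYAB was most like SHD (0.969), ATP5PF and RRAD. HSPB2 was most like MYH7 (0.967), RRAD and TRIM54, and HSPB1 most like NDUFA11 (0.959), POLR3GL and CFL2. HSPB3, HSPB6 and HSPB8 did not reach the 50 CPM set for this ranking. Among the members, CRYAB and HSPB2 had r of 0.92, HSPB2 and HSPB3 of 0.91 and HSPB3 and HSPB7 of 0.90.

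Other chaperones in muscle-gated cells were set beside the family. For CHIR against DMSO, 20.4% of all 15662 genes were past 1.5-fold higher and 26.5% past it lower, with a median log2 ratio of -0.03. Of 12 genes of the HSP70, HSP110 and HSP40 families, 5 were past 1.5-fold higher and 2 past it lower with CHIR than with DMSO, with a median log2 ratio of 0.44. HSPA8, the constitutive HSP70, was 1.31 times DMSO, HSPA5 of the endoplasmic reticulum 2.04 times and mitochondrial HSPA9 2.66 times. DNAJA1, an HSP40 partner of HSP70, was 1.24 times. HSPA1B and DNAJB4 were the pair that was lower, by 1.87-fold and 2.01-fold. Of 4 HSP90 genes, 2 were higher, HSP90AA1 at 1.65 times and HSP90AB1 at 1.60 times, and none lower. Of 9 chaperonin genes 3 were higher, HSPD1 at 1.68 times among them, and none lower.

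Of the 4 partners of HSPB8, 1 was higher and none was lower past the threshold, against 20.4% and 26.5% of all genes. BAG3 stood at 27.5 CPM with DMSO and 32.3 CPM with CHIR, 1.18 times (1.05 to 1.32). STUB1 was 1.15-fold lower (1.10 to 1.22), and SYNPO2, which takes part in the same filamin pathway, stood at 2.36 times DMSO (2.12 to 2.62). Of the heat shock factors, HSF1 was 1.05 times DMSO and HSF2 1.24-fold lower, while HSF4 had 6 and 15 UMIs and was 1.95-fold lower with an interval that spans 1. Of the filament and Z-disc proteins bound by the family, DES was 2.06-fold lower (1.72 to 2.47), FLNC 1.41 times (1.33 to 1.496) and VIM 1.60 times DMSO. With DMSO against day 11, none of the 4 HSP90 and 9 chaperonin genes passed the threshold either way. Of the 12 HSP70, HSP110 and HSP40 genes, 1 was higher and 3 were lower. Over all 17887 genes of that comparison 8.53% were higher and 53.5% lower, with a median log2 ratio of -0.67.

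HSPB9, a family member known from testis, had 20, 14 and 2 UMIs in muscle-gated cells. HSPB11 carries the family's name but lacks its crystallin fold. It was higher in mesenchymal-gated cells, at 110.2 CPM at day 11, 112 CPM with DMSO and 77.01 CPM with CHIR, against 41.5, 54.9 and 31.2 CPM in muscle-gated cells, where CHIR was 1.76-fold below DMSO.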

How the data were processed

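The authors deposited 3 tables of raw UMI counts per gene and cell, 1 per library. Per the labels' protocols they are droplet 3' libraries, and per the submitters' processing notes they were made with Cell Ranger 6.1.1 on GRCh38, with R 4.1.0 and Seurat 4.3.0 also named for day 11. Counting of introns and of strand was not given in the sources used here. Cells in the tables held 1802 to 5999 detected genes, and none was removed. The members, the marker and chaperone lists and the named genes (the 7 members whatever their values, the chaperone lists, the neighbours of CRYAB and the 3 most alike genes) were chosen with earlier results of these data known. HSPA1B, DNAJB4 and the single marker genes named in muscle were picked after their values were seen.

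A muscle gate was set at 33.8 and a mesenchymal gate at 7.64 marker UMIs per 10000, by Otsu's method. Endothelial (10 per 10000) and endoderm (50 per 10000) gates needed 3 markers and were set after their scores were seen. Within 1.25-fold of the muscle gate lay 208 cells at day 11, 212 with DMSO and 65 with CHIR. Within that range of the mesenchymal gate lay 419, 223 and 210 cells. No doublet caller was run, and an alternative left out the 6% of cells with most UMIs. Counts were summed per class and divided by the class total (CPM). Ratios have exact conditional binomial intervals, levels exact Poisson and shares exact Clopper-Pearson intervals. Shares of cells came from cells thinned to 5000 UMIs, which left out 14 to 128 shallower muscle-gated cells per library. Log2 ratios had 0.5 added to each count. Code in Python 3.11.15 with numpy 2.4.6, scipy 1.17.1 and pandas 2.3.3 (figures in matplotlib 3.10.9) was tested on simulated counts. TMM factors came from edgeR 4.0.16. Alternatives changed the gates, the totals, the scaling factors, the minimum of 20 UMIs, the deepest cells and the SHOX2 cells.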

Additional observations from a re-analysis of the deposited data

Results flagged for a closer look

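HSPB7 moved in opposite directions in the 2 main classes: the ratio of CHIR to DMSO was 1.22 in muscle-gated cells and 0.665 in mesenchymal-gated cells, with counting intervals of 1.19 to 1.2504 and 0.592 to 0.747. The difference was not tested, since each group has 1 library. The mesenchymal level of HSPB7 was 2.04% to 4.05% of its muscle level, within the range of muscle genes outside the gates, and muscle-gated cells were 45.6% of cells with DMSO and 22.7% with CHIR. The part of these shares in the lower mesenchymal value was not tested.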

How the results depend on the processing

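All 143 recomputed counts of members stayed equal to the reported count or within 1.5 times of it. That limit is wide for counts of at most 7, so members could pass or miss the threshold within it. Of the 496 recomputed single-gene values, 91 moved beyond their counting interval. No ratio past 1.5-fold changed direction. The ratio of HSPB8 between DMSO and day 11, which is not past it, did: its log2 ratio of -0.14 became 0.06 without mitochondrial and ribosomal protein genes, 0.46 with TMM factors and 0.48 with median-of-ratios factors. HSPB1 in muscle-gated cells ranged from 1.35-fold to 1.57-fold below DMSO with CHIR, and HSPB7 in mesenchymal-gated cells from 1.249-fold to 1.84-fold, so both crossed the threshold. HSPB1 fell short with TMM or median-of-ratios factors, with the mean of per-cell CPM, without mitochondrial and ribosomal protein genes and relative to short genes. HSPB7 fell short with the muscle gate moved 2-fold either way, with the mesenchymal gate raised 2-fold and with the last 2 of those settings. CRYAB stayed between 5.996-fold and 6.97-fold lower in muscle and HSPB2 between 9.34-fold and 11.3-fold. The setting relative to genes of at most 20 kb was chosen after seeing the data. No paired analysis was possible because each RNA group has 1 library, and the replicate numbers belong to the immunoprecipitation samples not analysed here. Depth limits HSPB6 in muscle and HSPB2 and HSPB3 in mesenchymal cells, each read from 49 UMIs or fewer in a library.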
